A study of Rattus norvegicus with 6 samples.

Results

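The 9 genes described here encode proteins that seal the blood-nerve barrier or carry molecules across it: Cldn1, Cldn5, Ocln, Marveld2, F11r, Tjp1, Cgn, Abcb1a and Mfsd2a. They were taken from the mRNA table by gene symbol, and all 9 had a row among its 30957 genes. The sciatic nerves came from 6 Sprague-Dawley rats, 1 month old, 2 each from the control, D4 and D7 groups. Control rats were labelled as normal control, and the methods of the study describe their operation as the same surgery without the clamp. In the D4 and D7 groups the middle of the left sciatic nerve was clamped with hemostatic forceps under chloral hydrate anesthesia, and the nerve was taken 4 or 7 days after the crush injury. No strain, transgene or drug treatment distinguished the groups, each rat gave 1 library, and the libraries carry the letters a and b within a group.

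Peripheral nerve is sealed from blood at 2 places. Endothelial cells of the endoneurial microvessels are joined by tight junctions, and the perineurium, a sleeve of flattened cells around each nerve fascicle, is joined by tight junctions of its own. Claudins span the membrane and form the sealing strands, occludin and tricellulin lie beside them, junctional adhesion molecules sit at the same contacts, and plaque proteins such as ZO-1 and cingulin tie the strands to actin. Endothelial barrier cells also pump out foreign compounds through P-glycoprotein and carry lysophosphatidylcholine with omega-3 fatty acids through Mfsd2a.

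The mRNA counts summed to between 18727255 and 25350886 fragments per library. Each tested gene of the 9 had at least 26 counts in every library, and 3 counts corresponded to between 0.111 and 0.181 CPM (counts scaled to the library total). Levels below are CPM scaled with TMM factors, which correct for differences in library composition, unless FPKM is named. The tissue carried the defining genes of nerve, since the 6 myelinating Schwann cell markers summed to 102058 and 69537 CPM in the control libraries. All 9 endothelial markers with a row were detected in every library. Of the 5 perineurial markers, Lypd2 was at 0 in every library, and no row carried the name Pecam1. D7 a stood apart in its adipocyte markers, which summed to 32.7 CPM against 948 CPM in D7 b.

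Against control, 3 of the 8 genes tested were downregulated and 1 was upregulated at D4, and 4 were downregulated and none upregulated at D7. A gene was called where the edgeR adjusted p was under 0.05 and the change was at least 2-fold. Cldn1, Cldn5 and Mfsd2a were downregulated at both days, F11r at D7, and Marveld2 was upregulated at D4. At an unadjusted p under 0.05 there were 6 of 8 at D4, with Marveld2 the 1 that was higher, and 5 of 8 at D7, all lower, where 53.2% and 48.4% of all mRNAs tested had such a p in either direction. Over all 15195 mRNAs tested, 21.9% were called at D4, 11.2% as higher and 10.7% as lower. At D7 18.8% were called, 9.83% as higher and 9.02% as lower. The median log2 fold change of the 8 genes was -0.65 at D4 and -0.91 at D7, beside -0.04 and 0.01 over all mRNAs tested. Both injured groups were compared with the same 2 control libraries. Leaving the TMM factors out shifted that overall median to 0.25 (D4) and 0.31 (D7), the share of calls that were higher moved from 51.2% to 69.3% and from 52.1% to 70.4%, and 3 of the 8 genes were called at each day. Because whole nerve was sequenced, fewer cells of a type and less RNA per cell cannot be told apart in any of these values.

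**Figure D1:**
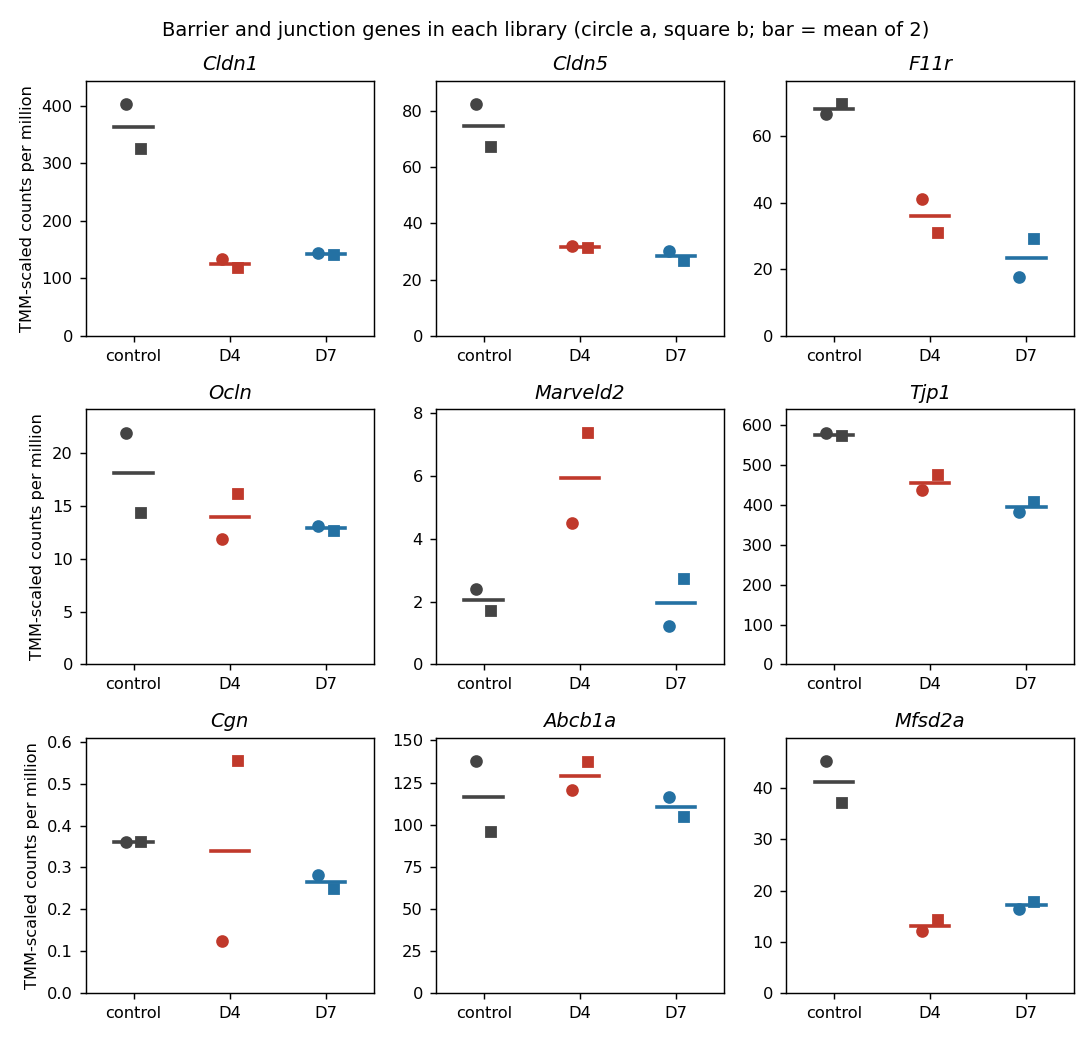
Level of each of the 9 genes in each library, in TMM-scaled CPM on a linear axis from 0, with control, D4 and D7 along the horizontal axis, a circle for library a, a square for library b and a bar for the mean of 2. The injured libraries of Cldn1, Cldn5, F11r, Tjp1 and Mfsd2a sit below both control libraries, and those of Marveld2 sit above them at D4.

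Cldn1, the claudin of perineurial tight junctions, was the gene with the highest control level per transcript length of the 9. The gene (ENSRNOG00000001926) lies at chr11:77815181-77830416 on Rnor_6.0. It stood at 402.6 and 324.4 CPM in the control libraries, 133.2 and 117.8 CPM at D4, and 143.4 and 140.2 CPM at D7. All 4 injured libraries lay below both control libraries, with no overlap. The level was 2.90-fold lower at D4 (log2 fold change -1.53, SE 0.13, edgeR adjusted p = 0.000456). At D7 it was 2.56-fold lower (log2 fold change -1.36, SE 0.13, edgeR adjusted p = 0.000997). Slc2a1, the glucose transporter GLUT1 of perineurial and endothelial cells, moved in the same direction, with 305.6 and 217.4 CPM in control, 182.7 and 166.4 CPM at D4, and 119.9 and 116.2 CPM at D7. Slc2a1 was called as lower at D7 (log2 fold change -1.15, SE 0.17, edgeR adjusted p = 0.00388) and was under 2-fold at D4 (log2 fold change -0.58). The ratio of Cldn1 to Slc2a1 CPM was 1.32 and 1.49 in control, 0.729 and 0.708 at D4, and 1.20 and 1.21 at D7. The ratio was therefore lower than in both control libraries in all 4 injured libraries, by more at D4 than at D7. The 5 perineurial markers did not move one way. Krt19, a keratin, was called as lower at D7, and Msln and Moxd1 as higher at both days. The median log2 fold change of the 4 tested was 1.25 at D4 and 0.56 at D7. The summed level of the 5 ran from 230 to 349 CPM in control. It was 229 to 242 CPM at D4 and 143 to 149.9 CPM at D7. Slc2a1, which is not particular to the perineurium, made up most of that sum in every library. The part of perineurial cells in the change of Cldn1 was not tested.

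Cldn5 is the claudin of endothelial tight junctions. The gene (ENSRNOG00000045811) lies at chr11:86356294-86357718. Its level was 82.3 and 67.0 CPM in the control libraries, 31.8 and 31.4 CPM at D4, and 30.3 and 26.8 CPM at D7. The injured libraries lay within a narrow band, well below the lower control library. Expression was 2.36-fold lower at D4 (log2 fold change -1.24, SE 0.13, edgeR adjusted p = 0.000884) and 2.62-fold lower at D7 (log2 fold change -1.39, SE 0.13, edgeR adjusted p = 0.000928). Without TMM factors the D4 change was -0.95 on the log2 scale, under 2-fold, with an edgeR adjusted p of 0.00154. The 9 endothelial markers summed to 1077 and 1817 CPM in control, 774 and 686 CPM at D4, and 409.6 and 671 CPM at D7. Cdh5, the cadherin of endothelial adherens junctions, stood at 176.8 and 169.3 CPM in control, 136.2 and 102.0 CPM at D4, and 67.0 and 92.1 CPM at D7. The ratio of Cldn5 to Cdh5 CPM was 0.466 and 0.396 in control, 0.234 and 0.308 at D4, and 0.453 and 0.291 at D7. At D4 both ratios lay below both control ratios, and at D7 the 2 groups overlapped. As a share of the summed endothelial markers, Cldn5 was 7.65% and 3.69% in control, 4.11% and 4.58% at D4, and 7.41% and 3.99% at D7, so that all groups overlapped. The part of the endothelial cells in the change of Cldn5 was not tested. The span of Cdc45, a DNA replication gene, at chr11:86329012-86358453 covers that of Cldn5. Cdc45 had 38 and 58 counts in control, 433 and 472 at D4, and 218 and 229 at D7, and was called as higher at both days. Whether the counting used the strand is not given in the sources used here, so the assignment of reads between the 2 genes is uncertain.

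F11r encodes JAM-A, an adhesion molecule of tight junctions in endothelium and epithelium that platelets and leukocytes also carry. The gene (ENSRNOG00000004414) lies at chr13:89826254-89850612. It stood at 66.7 and 69.5 CPM in control, 41.2 and 30.9 CPM at D4, and 17.7 and 29.0 CPM at D7. The 3 groups did not overlap, and the D7 libraries were the lowest. At D7 the level was 2.92-fold lower than in control (log2 fold change -1.55, SE 0.25, edgeR adjusted p = 0.00576). The D4 level was 1.89-fold lower (log2 fold change -0.92, SE 0.25, edgeR adjusted p = 0.0266), short of the 2-fold threshold, and its adjusted p was 0.0823 without TMM factors and between 0.0559 and 0.149 without any 1 of the control or D4 libraries.

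Ocln, occludin, gave no call at either day. The gene (ENSRNOG00000018297) lies at chr2:30527715-30577218. Its CPM were 21.9 and 14.3 in control, 11.8 and 16.1 at D4, and 13.1 and 12.6 at D7. The D4 libraries lay on both sides of control b, and the 2 D7 libraries lay below both control libraries by little. The log2 fold change was -0.38 at D4 (95% interval -0.97 to 0.22, edgeR adjusted p = 0.2496) and -0.50 at D7 (95% interval -1.10 to 0.10, edgeR adjusted p = 0.161). Differences of up to about the 2-fold threshold lie within these intervals.

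Marveld2 encodes tricellulin, which seals the corners where 3 cells meet, and was the gene of the 9 that rose. It lies at chr2:30612106-30634243 (ENSRNOG00000052167), 34887 bp from Ocln. The level was low: 2.42 and 1.69 CPM in control, from 47 and 28 counts, 4.51 and 7.39 CPM at D4, from 110 and 200 counts, and 1.22 and 2.72 CPM at D7, from 26 and 55 counts. Both D4 libraries lay above the other 4, and the D7 libraries lay on both sides of the control libraries. At D4 the level was 2.88-fold higher than in control (log2 fold change 1.53, SE 0.46, edgeR adjusted p = 0.0395). At D7 the log2 fold change was -0.07 (95% interval -1.24 to 1.11, edgeR adjusted p = 0.923). The D4 call was lost with the library letter as a replicate block (log2 fold change 1.45, edgeR adjusted p = 0.0502). It was also lost without control a, control b, D4 a or D4 b, with edgeR adjusted p of 0.0717, 0.143, 0.0655 and 0.203, so it rested on all 4 libraries.

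Tjp1 encodes ZO-1, the scaffold that links claudins and occludin to actin, and Cgn encodes cingulin, a plaque protein of epithelial tight junctions. Tjp1 (ENSRNOG00000011077) lies at chr1:126146489-126227469. It stood at 580.9 and 571.6 CPM in control, 436.6 and 475.0 CPM at D4, and 381.1 and 406.9 CPM at D7. The 3 groups did not overlap, but the steps between them were small. The level was 1.26-fold lower at D4 (log2 fold change -0.34, SE 0.10, edgeR adjusted p = 0.0319) and 1.46-fold lower at D7 (log2 fold change -0.55, SE 0.10, edgeR adjusted p = 0.00734), so neither day met the 2-fold threshold. These differences depended on the scaling: without TMM factors the log2 fold change was -0.05 at D4 (edgeR adjusted p = 0.692) and -0.25 at D7 (edgeR adjusted p = 0.0743). At D4 it also missed an adjusted p of 0.05 without any 1 of control a, control b, D4 a, D4 b or D7 a. Cgn (ENSRNOG00000020952, chr2:195909626-195935878) had 7 and 6 counts in control, 3 and 15 at D4, and 6 and 5 at D7. It did not pass the low-count filter and was not tested. A difference in cingulin mRNA was not detectable at this depth.

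Abcb1a encodes P-glycoprotein, the efflux pump of barrier endothelium, and was near its control level at both days. The gene (ENSRNOG00000008012) spans chr4:22133521-22425515, 291995 bp. The level was 137.7 and 95.3 CPM in control, 120.5 and 137.2 CPM at D4, and 116.4 and 104.6 CPM at D7. All injured libraries lay between the 2 control libraries. The log2 fold change was 0.14 at D4 (95% interval -0.30 to 0.59, edgeR adjusted p = 0.554) and -0.08 at D7 (95% interval -0.53 to 0.37, edgeR adjusted p = 0.767). Both intervals lie inside the 2-fold threshold. No row carries the name of its close copy Abcb1b, so reads of the 2 copies may be joined here. The sign of these small changes turned with the scaling and with single control libraries.

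Mfsd2a, the lysophosphatidylcholine carrier that also restrains vesicle transport in brain endothelium, fell at both days. The gene (ENSRNOG00000014008) lies at chr5:140642885-140657745. It stood at 45.3 and 37.0 CPM in control, 12.1 and 14.2 CPM at D4, and 16.5 and 17.8 CPM at D7. All 4 injured libraries lay below both control libraries, the D4 pair lowest. The level was 3.13-fold lower at D4 (log2 fold change -1.65, SE 0.15, edgeR adjusted p = 0.000565) and 2.40-fold lower at D7 (log2 fold change -1.26, SE 0.15, edgeR adjusted p = 0.0019). Without TMM factors the D7 change was -0.97 on the log2 scale, under 2-fold, with an edgeR adjusted p of 0.00359. Liver and fat tissue also express Mfsd2a. The 6 adipocyte markers summed to 2713 and 2485 CPM in control, 579 and 288 CPM at D4, and 32.7 and 948 CPM at D7. The part of fat cells in the change of Mfsd2a was not tested.

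**Figure D2:**
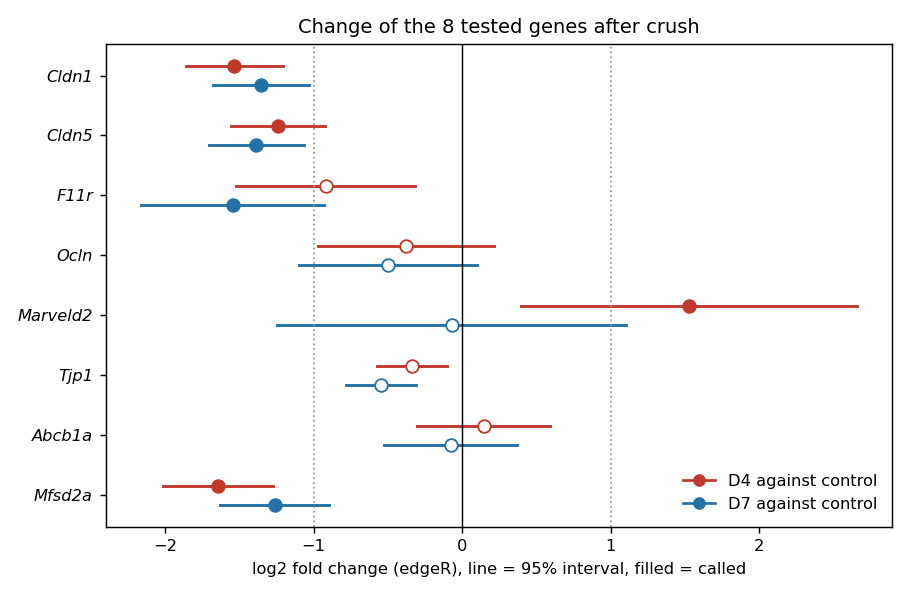
Log2 fold change of the 8 tested genes from edgeR, with control at 0, D4 in red and D7 in blue; lines are 95% intervals, filled circles are calls, and dotted lines mark a 2-fold change. Cldn1, Cldn5 and Mfsd2a have both circles filled on the left, F11r the D7 circle, and Marveld2 has the D4 circle filled on the right.

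The 4 called genes whose RefSeq promoter window ends at the start of the gene are shown with their sequence, to set 3 genes that fell beside the 1 that rose. The windows hold the 250 bases before the start on GRCr8, another build than that of the counts, 5' to 3' on the strand of the gene. Capitals mark the E-box CACCTG, the core bound by Snail and Zeb repressors, and the GC box GGGCGG, the core bound by Sp1, on either strand. The 2 motifs do not overlap.
Cldn1, chr11:87926126-87926375, plus strand: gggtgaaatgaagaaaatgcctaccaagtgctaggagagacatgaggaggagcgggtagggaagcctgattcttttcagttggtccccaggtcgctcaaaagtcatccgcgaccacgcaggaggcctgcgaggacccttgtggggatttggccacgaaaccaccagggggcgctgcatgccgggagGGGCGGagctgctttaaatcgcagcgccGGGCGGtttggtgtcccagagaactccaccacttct
Cldn5, chr11:95718599-95718848, minus strand: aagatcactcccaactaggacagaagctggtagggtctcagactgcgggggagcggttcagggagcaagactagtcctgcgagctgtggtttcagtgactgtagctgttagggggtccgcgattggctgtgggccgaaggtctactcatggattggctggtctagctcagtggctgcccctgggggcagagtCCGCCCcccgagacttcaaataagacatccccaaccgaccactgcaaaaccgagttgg
F11r, chr13:86405979-86406228, plus strand: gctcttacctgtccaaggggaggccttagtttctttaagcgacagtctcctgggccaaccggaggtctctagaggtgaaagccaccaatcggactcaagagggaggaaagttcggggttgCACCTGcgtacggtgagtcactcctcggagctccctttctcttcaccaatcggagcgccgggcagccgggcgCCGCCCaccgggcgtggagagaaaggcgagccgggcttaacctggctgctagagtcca
Marveld2, chr2:33498226-33498475, minus strand: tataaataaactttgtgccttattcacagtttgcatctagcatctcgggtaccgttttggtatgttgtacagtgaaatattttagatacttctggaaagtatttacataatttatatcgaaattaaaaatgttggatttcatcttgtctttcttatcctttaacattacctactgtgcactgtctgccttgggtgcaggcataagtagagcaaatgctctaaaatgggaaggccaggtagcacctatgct
The GC box occurs 2 times in the window of Cldn1, 1 time in that of Cldn5 and 1 time in that of F11r, and these letters are not in the window of Marveld2. The E-box occurs 1 time in these 4 windows, in that of F11r. Over all 33469 rat promoter windows of this length, 30.5% hold the GC box and 15.9% the E-box. RefSeq entries were matched for 8 of the 9 genes. Mfsd2a, which was called as lower at both days, had no promoter entry and is missing from these windows. The windows of Ocln, Tjp1, Cgn and Abcb1a lie inside the gene span, before a start other than the outermost one, and are not shown. Among those, Abcb1a, which was not called, holds 1 GC box, and Cgn, which was not tested, holds 7. Ocln, which was not called, holds 2 E-boxes. In all, 5 of the 8 windows hold the GC box and 2 hold the E-box. These matches describe the letters only.

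Between D4 and D7, none of the 8 genes was called, where 2.18% of all mRNAs were, 1.68% as higher and 0.494% as lower at D7. At an unadjusted p under 0.05 there were 3, beside 24.7% of all mRNAs, and DESeq2 called 1. Marveld2 was 3.02-fold lower at D7 than at D4 (log2 fold change -1.60, SE 0.46, edgeR adjusted p = 0.105, DESeq2 adjusted p = 0.0268). F11r was lower at D7 (log2 fold change -0.63, SE 0.25, edgeR adjusted p = 0.192). Mfsd2a was higher at D7 (log2 fold change 0.38, SE 0.15, edgeR adjusted p = 0.191). The values of the last 3 genes did not pass the adjusted test with edgeR. For Cldn1 the log2 difference was 0.18 (95% interval -0.14 to 0.49) and for Cldn5 -0.15 (95% interval -0.46 to 0.17), so a change of 2-fold between the days lies outside both intervals.

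Per transcript length, the order of the 9 genes changed after injury. In control the deposited FPKM ran from Cldn1 at 96.1 ± 13.0 (SD, n = 2) over Tjp1 at 65.8 ± 0.398, Cldn5 at 45.7 ± 5.82, F11r at 25.0 ± 1.17, Mfsd2a at 16.8 ± 2.10, Abcb1a at 6.83 ± 1.64, Ocln at 2.67 ± 0.740 and Marveld2 at 0.542 ± 0.128 to Cgn at 0.0620. No libraries of neighbouring genes overlapped in control. At D4 Tjp1 led at 63.5 ± 3.87 and Cldn1 followed at 40.6 ± 3.44 (SD, n = 2). At D7 the order of these genes was the same, with Tjp1 at 55.1 ± 3.11 and Cldn1 at 46.0 ± 0.275 (SD, n = 2). Tjp1 thus passed Cldn1 in all 4 injured libraries: the ratio of their FPKM was 0.622 and 0.760 in control, 1.41 and 1.74 at D4, and 1.15 and 1.25 at D7. The 2 claudins kept closer to each other, with a Cldn1 to Cldn5 FPKM ratio of 2.11 and 2.09 in control, 1.81 and 1.62 at D4, and 2.04 and 2.26 at D7. Mfsd2a, at 6.58 ± 0.771 FPKM at D4, stood below Abcb1a at 9.24 ± 0.857 there (SD, n = 2). At D7 F11r, Mfsd2a and Abcb1a overlapped between neighbours, as did Ocln and Marveld2 at D4.

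**Figure D3:**
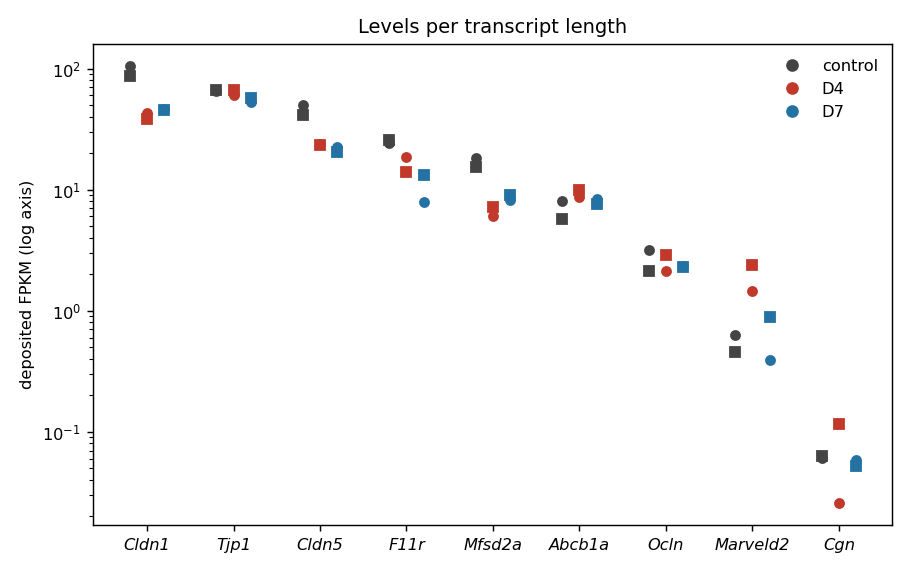
Deposited FPKM of the 9 genes on a log axis, ordered by their control mean, with control in grey, D4 in red and D7 in blue, a circle for library a and a square for library b. Cldn1 lies above Tjp1 in control and below it in all injured libraries, and the genes run from 96.1 FPKM for Cldn1 down to 0.0620 FPKM for Cgn in control.

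The genes whose levels followed those of the called genes most closely over the 6 libraries were sought among 13326 mRNAs with Pearson's r of log2(CPM + 1). For Cldn1 they were Cd200, Chst2 and Dock9, with r of 0.9996 for Cd200. For Cldn5 they were Cacnb3, Foxo1 and Iqsec1, with r of 0.9989 for Cacnb3. Foxo1, a forkhead transcription factor, stands also in the list of barrier transcription genes and was called as lower at both days. For Mfsd2a they were Pex19, Cdc37l1 and RGD1563888, for F11r Slfn5, Copz1 and Gnai3, and for Marveld2 Rpsa, Mt1m and Lyve1. The 6 points share 3 group means, so such values describe the shape over groups.

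The other claudins gave 1 rise and 3 falls at D4 and 4 falls at D7 among 11 tested of 21 with a row. Of all mRNAs tested, 11.2% were called as higher and 10.7% as lower at D4. At D7 these shares were 9.83% and 9.02%, and they also stand beside the counts of the lists below. The median log2 fold change of the other claudins was -0.79 at D4 and -0.65 at D7. Cldn19, the claudin of the tight junctions that myelinating Schwann cells form with themselves, lost more counts than any other of this list. It stood at 427.8 and 281.0 CPM in control, 4.68 and 7.79 CPM at D4, and 175.3 and 116.2 CPM at D7. D4 was lower than control (log2 fold change -5.82, SE 0.39, edgeR adjusted p = 0.000231) and D7 less so (log2 fold change -1.28, SE 0.32, edgeR adjusted p = 0.0241), and D7 was higher than D4 (log2 fold change 4.54, SE 0.37, edgeR adjusted p = 0.0117). The 6 myelinating Schwann cell markers moved with it: they summed to 3.91% and 4.46% of the control mean in the D4 libraries and to 19.7% and 12.3% in the D7 libraries. Cldn11, a claudin of central myelin and testis, had 265 and 265 counts in control, 64 and 105 at D4, and 391 and 276 at D7, and was called as lower at D4 and higher at D7 against D4. Cldn15, a pore-forming claudin of the intestine, rose at D4 (log2 fold change 1.40, SE 0.27, edgeR adjusted p = 0.00799) from 28 and 29 to 100 and 117 counts. Cldn20 was called as lower at both days, with 108 and 64 counts in control, 0 and 4 at D4, and 6 and 3 at D7. Cldn24 was called as lower at D7, with 22 and 8 counts in control, 15 and 9 at D4, and 3 and 3 at D7. The D7 count of 4 was 2 without control a or D7 b.

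Among 27 other tight junction proteins, 1 rose and 8 fell at D4, and 1 rose and 9 fell at D7. Their median log2 fold change was -0.50 at D4 and -0.62 at D7. Magi2, a multi-domain scaffold, fell from 113.3 and 83.9 CPM to 7.76 and 9.24 CPM at D4 and 22.3 and 16.1 CPM at D7. Its log2 fold change was -3.53 at D4 (SE 0.23, edgeR adjusted p = 0.000221) and -2.36 at D7 (SE 0.22, edgeR adjusted p = 0.000901). It was also the gene of this list called between the days, higher at D7 (log2 fold change 1.17, SE 0.22, edgeR adjusted p = 0.0451). Mpdz, the claudin-binding scaffold MUPP1, was lower at D4 (log2 fold change -1.59, SE 0.11, edgeR adjusted p = 0.000227). Mllt4, the afadin gene that links nectins to actin, fell by 1.80 at D7 (SE 0.20, edgeR adjusted p = 0.00139). Tjp3, the ZO-3 gene, rose at both days from 14 and 7 counts to 60 and 59 at D4 and 41 and 58 at D7. The D4 count of 9 calls was 5 without D4 a, and the D7 count of 10 was 6 without TMM factors. Of the 10 adherens junction genes, 2 fell at each day, with medians of -0.04 and -0.02. Cdh1, E-cadherin, which joins the folds of myelinating Schwann cells and epithelial cells, fell from 541.7 and 461 CPM to 24.2 and 29.8 CPM at D4 and 75.3 and 43.5 CPM at D7 (log2 fold change -4.21, SE 0.30, edgeR adjusted p = 0.00025 at D4). Cdh2, N-cadherin, was called at D4 (log2 fold change -1.21) and Cdh5 at D7 (log2 fold change -1.12), with edgeR adjusted p of 0.00475 and 0.00734. The adherens count was 1 at D4 without D4 b, 1 at D7 without D7 a, and 1 at each day without TMM factors.

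Of 13 other barrier transporters tested, 3 fell at D4 and 6 at D7, and none was called as higher. Over all mRNAs tested, 21.9% were called at D4 and 18.8% at D7, with 10.7% and 9.02% called as lower. The median log2 fold change of the 13 transporters was -0.57 at D4 and -0.74 at D7. At an unadjusted p under 0.05 there were 10 and 9 of these transporters, of either sign. Abcg2, the efflux pump BCRP, fell from 40.4 and 22.0 CPM to 6.69 and 7.35 CPM at D4 and 8.69 and 6.73 CPM at D7. Its log2 fold change was -2.15 at D4 (SE 0.31, edgeR adjusted p = 0.00273) and -2.02 at D7 (SE 0.31, edgeR adjusted p = 0.0046). Slc7a5, the LAT1 carrier of large neutral amino acids, had log2 fold changes of -1.58 at D4 and -1.88 at D7, with edgeR adjusted p of 0.00386 and 0.00282. Without TMM factors 2 of the transporters were called at D7.

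Of 12 genes of vesicle transport and permeability, 4 fell and 1 rose at D4, and 6 fell and 1 rose at D7. Cav1, the caveolin that forms caveolae, stood at 1105 and 1138 CPM in control, 436.5 and 379.1 CPM at D4, and 207.2 and 350.6 CPM at D7. Its log2 fold change was -1.46 at D4 (SE 0.24, edgeR adjusted p = 0.00487) and -2.01 at D7 (SE 0.25, edgeR adjusted p = 0.00219), and its partner Cav2 fell by 1.50 and 2.07 on the log2 scale. Fat cells and Schwann cells also express Cav1. Mmp9, a gelatinase, was called as higher at both days, from 4 and 0 counts in control to 76 and 134 at D4 and 23 and 82 at D7. Plvap, the diaphragm protein of fenestrated vessels, gave a log2 fold change of 0.32 at D4 (SE 0.58, edgeR adjusted p = 0.68) and was not called. Kdr and Flt1, the VEGF receptors, and Tek and Tie1 are also endothelial markers. So are Esam of the tight junction list and Cdh5 of the adherens list, so the counts of these lists share genes. The count of 5 calls at D4 was 1 without D4 b, and the count of 7 at D7 was 4 without control b.

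Of 14 barrier transcription and Wnt genes, 3 fell at D4 and 4 at D7, and none was called as higher. Over all mRNAs tested, 21.9% were called at D4 and 18.8% at D7, with 10.7% and 9.02% called as lower. Fzd4, a Norrin and Wnt receptor of barrier endothelium, fell from 311.1 and 308.5 CPM to 128.7 and 77.6 CPM at D4 and 38.8 and 115.9 CPM at D7 (log2 fold change -1.59, SE 0.50, edgeR adjusted p = 0.0448 at D4, and -2.00, SE 0.51, edgeR adjusted p = 0.0258 at D7). Within each group its libraries stood in the same order as the adipocyte sums. Those were 2713 and 2485 CPM in control, 579 and 288 CPM at D4, and 32.7 and 948 CPM at D7. The part of fat cells in the change of Fzd4 was not tested. Sox17 and Erg, endothelial transcription factors, had log2 fold changes of -1.07 at D4 and -1.30 at D7, in that order, with edgeR adjusted p of 0.00408 and 0.0166. Snai1, the Snail repressor of claudins and occludin, gave a log2 fold change of 0.42 at D4 (SE 0.29, edgeR adjusted p = 0.288) and -0.03 at D7, and was not called. Snai2, Zeb1, Zeb2 and Twist1 of the same list were not called as higher at either day, and their levels are not given here. Without TMM factors the list had no call at D4, with 9 of 14 at an unadjusted p under 0.05 under the TMM scaling, and 2 at D7. It had 2 at D7 also without control a or D7 a.

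**Figure D4:**
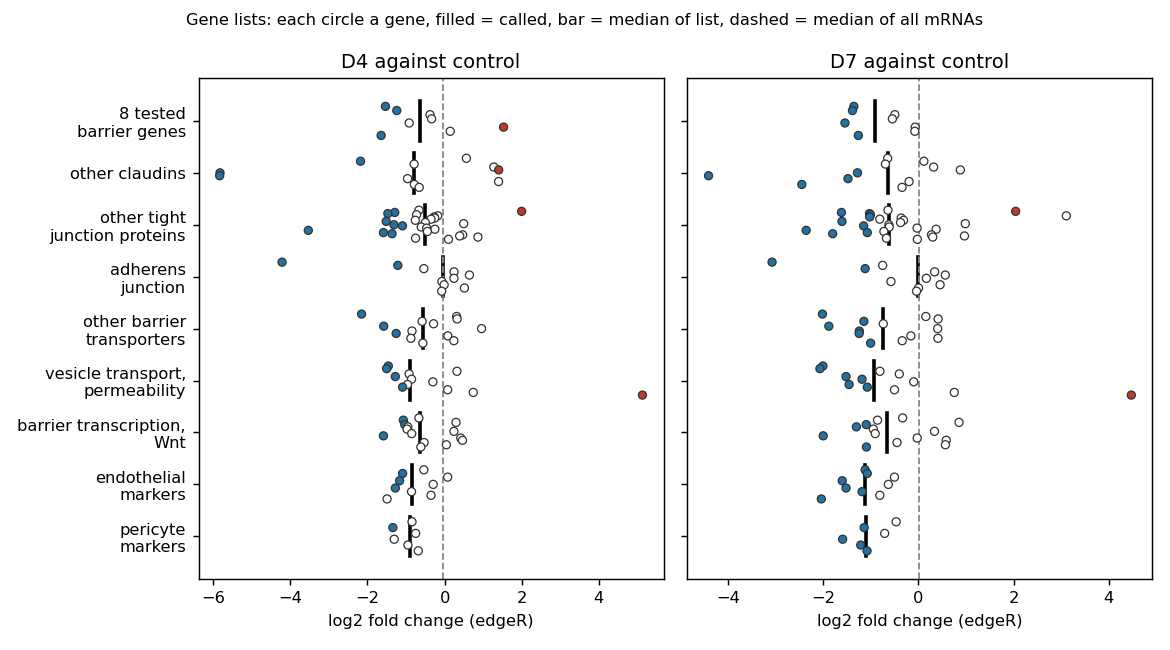
Log2 fold change from edgeR of the genes of each list at D4 (left) and D7 (right) against control, with each circle 1 gene, blue for called as lower, red for called as higher, white for not called, a black bar for the median of the list and a dashed line for the median of all mRNAs tested. The medians of the 8 tested barrier genes, at -0.65 and -0.91, lie left of the dashed line, as do those of the other claudins and of the endothelial and pericyte markers, while the adherens junction median is near it.

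The vascular markers also had negative median log2 fold changes at both days. Of all mRNAs tested, 21.9% were called at D4 and 18.8% at D7, with 10.7% and 9.02% called as lower. Of the 9 endothelial markers, 3 fell at D4 and 6 at D7, with medians of -0.86 and -1.12. The D4 count was 0 without D4 b, 0 without TMM factors and 5 without control a, and the D7 count was 3 without control b or TMM factors and 2 without D7 a. Of the 6 pericyte markers, 1 fell at D4 and 4 at D7, with medians of -0.90 and -1.11. Their D4 count was 0 without control b or D4 b, 2 without D7 a or D7 b and 5 without control a, and their D7 count was 0 without control b, D7 a or TMM factors and 2 without D4 a or D4 b. Their summed level was 1037 and 1695 CPM in control, 759 and 690 CPM at D4, and 623 and 725 CPM at D7. Control b carried the higher level of both vascular lists, and control a the higher level of Cldn1, Cldn5 and Mfsd2a.

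**Figure D5:**
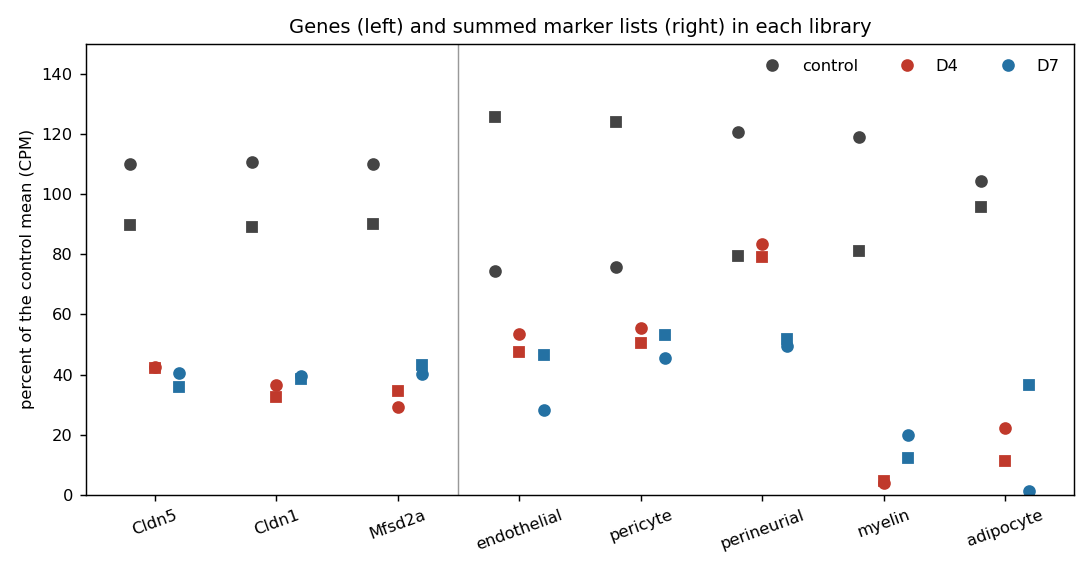
Level of Cldn5, Cldn1 and Mfsd2a (left of the line) and summed CPM of 5 marker lists (right) in each library, as percent of the control mean on an axis from 0, with control in grey, D4 in red and D7 in blue, circles for library a and squares for library b. The injured libraries of the 3 genes lie between 29.3% and 43.3% of the control mean, the endothelial sum between 28.3% and 53.5%, and the adipocyte sum between 1.26% and 36.5%. The perineurial sum is mostly Slc2a1.

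At the loci of the 9 genes, 12 lncRNA transcripts overlapped a gene or lay within 10 kb of it, and none of them was at Cldn1 or Cldn5. Of these, 4 passed the low-count filter, and 1 was called at each day against control. Between the days 0 were called with edgeR or DESeq2, and 0 had an unadjusted p under 0.05. Over all 14077 lncRNA transcripts tested 10.1% were called at D4, 5.79% at D7 and 0.249% between the days. NONRATT016037.2, which lies 275 bp from Marveld2 at chr2:30610769-30611831, had 5 and 5 counts in control, 18 and 25 at D4, and 15 and 20 at D7. It was called as higher at D4 (log2 fold change 1.91, SE 0.43, edgeR adjusted p = 0.047), as Marveld2 was. At D7 its log2 fold change was 1.69 (SE 0.43, edgeR adjusted p = 0.0817), which was not called, while that of Marveld2 was -0.07. MSTRG.22235.1, a transcript predicted by the authors 2252 bp from Mfsd2a at chr5:140585801-140640633, had 54 and 43 counts in control, 24 and 16 at D4, and 13 and 15 at D7. It was called as lower at D7 (log2 fold change -1.87, SE 0.37, edgeR adjusted p = 0.0477). Both calls were close to the threshold: the former was lost with DESeq2 and the latter without TMM factors, and each was lost without any 1 of the 4 libraries compared. NONRATT002743.2, inside the span of Tjp1 at chr1:126147672-126153300, had 1 and 1 counts in control, 705 and 10 at D4, and 617 and 748 at D7. The D7 libraries and D4 a were far above control, and D4 b was near it. In the edgeR fit of all 6 libraries it was not called (adjusted p = 0.0804 at D4 and 0.081 at D7), and DESeq2 called it at both days (adjusted p = 0.000663 and 0.000147). With edgeR it was also called as higher at D7 in the fit of only the 2 groups compared (adjusted p = 0.00482) and without D4 a or D4 b (adjusted p = 0.0070 and 0.00682), and at D4 without D4 b (adjusted p = 0.013). Without D4 a it was called as higher at D7 than at D4 (edgeR adjusted p = 0.0411). NONRATT022595.2, inside Mfsd2a, had 22 and 7 counts in control, 0 and 0 at D4, and 2 and 0 at D7, and was not tested.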

How the data were processed

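RNA of sciatic nerve was sequenced after removal of ribosomal RNA. The authors mapped reads with HISAT2 2.0.4 to the Ensembl rat genome (Rnor_6.0 per the submitters' processing notes), assembled transcripts with StringTie 1.3.0 and GffCompare, and deposited fragment counts per gene and per lncRNA transcript, which are not normalized, and FPKM made by the authors from the counts, which follow the mRNA total of each library. Whether counting used the strand is not given in the sources used here.

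Both tables were analysed with edgeR 4.0.16 (R 4.3.3): filterByExpr, TMM factors, and the quasi-likelihood test (glmQLFit, glmQLFTest) in 1 fit of all 6 libraries, with Benjamini-Hochberg adjustment across the 15195 mRNAs or 14077 lncRNAs. A call needed an adjusted p under 0.05 and a change of at least 2-fold. Standard errors were taken as the size of the log2 fold change over the root of its F statistic. Depth ran from 18727255 to 25350886 mRNA fragments a library. The genes and lists were chosen with earlier results of these data known. Genes named from lists are the 2 largest rises and falls called at each day with a mean FPKM of at least 1. Others were named after the results were seen (Tjp3, Cldn11, Plvap, Snai1, Snai2, Zeb1, Zeb2, Twist1, Kdr, Flt1, Tek, Tie1, Esam, Ngfr, lncRNAs not called). Alternatives were no TMM factors, RLE factors, DESeq2 1.42.0, other filters and thresholds, fits of 2 groups, the letter as a replicate block, and leaving out each library. The procedure was tested on simulated data.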

Additional observations from a re-analysis of the deposited data

Results flagged for a closer look

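The level of Cldn19 relative to control differed between the days: D7 exceeded D4 by 4.54 on the log2 scale (SE 0.37, edgeR adjusted p = 0.0117), and both D7 libraries, at 175.3 and 116.2 CPM, lay above both D4 libraries, at 4.68 and 7.79 CPM. Magi2 also differed between the days, higher at D7 by 1.17 on the log2 scale (SE 0.22, edgeR adjusted p = 0.0451), with 22.3 and 16.1 CPM at D7 above 7.76 and 9.24 CPM at D4. Both differences were tested directly as D7 against D4, in the fit of all 6 libraries, which set the filter, scaling and spread. Neither was called without D4 a or without D4 b, and the same held for every other mRNA tested, so that loss was not particular to these genes. In such fits the lone D4 library is assumed to vary like the other groups. The call of Magi2 was also lost without D7 a and with the library letter as a replicate block.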

How the results depend on the processing

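Cldn1 at both days, Cldn5 and F11r at D7, and Mfsd2a at D4 were called in all 15 settings compared. These used the reported thresholds or, in a setting that reused the main fit, no fold threshold. With the 2-fold change itself tested (glmTreat) 2 of the 8 genes were called at D4 and 1 at D7, and 1683, 1217 and 37 mRNAs at D4, at D7 and between the days. With no fold threshold 6715, 5705 and 710 mRNAs were called. DESeq2 called 1 of the 8 genes and 521 mRNAs between the days, where edgeR called 0 and 331. Leaving out 1 library gave 3 to 4 of the 8 genes at D4, and 0 to 469 mRNAs between the days (0 without D4 a or D4 b, 99 without D7 a).

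Without TMM factors the log2 fold change at D7 turned to 0.23 for Marveld2 and 0.22 for Abcb1a. Leaving out 1 library turned Marveld2 at D7 (range -0.75 to 0.43), Abcb1a at D7 (-0.32 to 0.21) and at D4 (-0.10 to 0.43), and Ocln between the days (-0.32 to 0.12). None of these was called.

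Of the lncRNAs at the 9 loci, DESeq2 called 2 at each day. At D4 0 were called without the low-count filter, with only the 2 groups, with the replicate block and with glmTreat, and 0 to 1 without 1 library. At D7 0 were called without TMM factors, without the filter, with the block and with glmTreat, and 0 to 1 without 1 library. Between the days 0 to 1 were called without 1 library.

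The labels number rats a and b in each group, but the rats differ: same-lettered libraries deviated together with correlations of 0.025, 0.237 and -0.19 for control with D4, control with D7 and D4 with D7. With the letter as a replicate block, 3 and 4 of the 8 genes were called at D4 and D7 and 248 mRNAs between the days. With the D4 letters exchanged, a choice made after seeing the data, 334 mRNAs were called between the days. With 2 rats a group, changes under 2-fold in genes of Marveld2's level could not be resolved.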

Other observations

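Markers of other cell types also moved in the whole nerve. All 6 macrophage markers were called as higher at D4 and 5 at D7, and their sum ran from 294 to 328 CPM in control, 982 to 1001 CPM at D4 and 628 to 765 CPM at D7. Of the 6 repair Schwann cell markers 5 were called as higher at each day, and Ngfr, the p75 neurotrophin receptor, had 445 and 346 counts in control, 45418 and 53579 at D4, and 23610 and 21250 at D7. All 6 proliferation markers were called as higher at both days, with sums of 34.3 to 73.0 CPM in control, 880.1 to 1022 CPM at D4 and 581 to 619.8 CPM at D7. Of 4 epithelial markers tested, 2 were called as lower and 1 as higher at each day, and Cdh1 is among them.

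No adipocyte, skeletal muscle or reference gene was called at either day with edgeR or DESeq2. At an unadjusted p under 0.05 there were 0 adipocyte genes, 0 skeletal muscle genes and 3 reference genes at each day. Of the 5 reference genes tested, 3 also had an edgeR adjusted p under 0.05 at each day, with changes under 2-fold. The adipocyte medians were -2.43 and -2.42 on the log2 scale, and the skeletal muscle sum ran from 4.27 to 41.8 CPM in control, 6.95 to 84.3 CPM at D4 and 7.98 to 21.9 CPM at D7. The reference genes summed to between 943 and 1007 CPM in control, 1137 and 1142 CPM at D4, and 1045 and 1054 CPM at D7.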
